A study of Mus musculus with 6 samples.

Results

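Interferon-stimulated genes are the antiviral and immune genes that cells switch on when interferon reaches them. A list of 34 of them was taken by gene symbol, and each of the 34 matched a single row among the 25901 rows of the expression table. RNA abundance had been measured by poly(A) RNA sequencing in 6 mouse hearts, 3 labelled SRAKO (SRAKO2365, SRAKO2371 and SRAKO2372) and 3 labelled WT (WT2368, WT2378 and WT2379). Sra1 gives rise to SRA, an RNA coactivator of nuclear receptors that also has a protein-coding form. Both genotypes received isoproterenol, which stimulates beta-adrenergic receptors and leads to cardiac hypertrophy, for 4 weeks, and hearts without the drug were not analysed here. The labels state neither strain, sex, age nor the part of Sra1 that was removed. They do not say outright that each heart is a separate animal, so the p-values measure the spread between these samples.

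Type I interferons bind the receptor IFNAR1/IFNAR2, whose kinases JAK1 and TYK2 start a signal that assembles the complex ISGF3, with STAT2 and IRF9 among its parts. ISGF3 binds the interferon-stimulated response element (ISRE) in front of its target genes. Interferon gamma acts mainly through a different element, the gamma-activated site (GAS). In mouse hearts after infarction these genes are known to be switched on in macrophages and other cells that sense nucleic acids of dying cells. A low level of the same genes is kept up in most tissues without infection.

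The sequence element that the pathway reads is shown first, because it is what many of the 34 genes share apart from the name of the list. RefSeq promoter windows on GRCm38.p6, from 250 bases before to 50 bases after the start of each gene, were matched by symbol for 24 of the 34 genes. The core of the ISRE was searched as GAAANNGAAA on both strands, which reads TTTCNNTTTC on the opposite strand. It was present in 13 of the 24 genes, 54.2%, against 3.99% of all 27025 genes with a window. The GAS core, searched as TTCNNNGAA, was present in 8 of the 24 genes, 33.3%, against 9.55% of all genes. Both were present in 4 genes (Bst2, Eif2ak2, Ifitm3 and Oas1a), and in Bst2 and Ifitm3 a GAS match overlapped an ISRE match. Neither was present in the windows of 7 genes, Dtx3l, Ifi44, Irf7, Irf9, Oasl2, Trim25 and Xaf1, which says only that these letters are not in these windows. A match is a description of the sequence and not a tested binding site. The stretches below run 5′ to 3′ on the strand of the gene, lie before its start, and have the ISRE core in capitals. In Isg15, Bst2 and Gbp3 neighbouring cores overlap and form a longer run.
Isg15 (chr4:156200860-156200911, minus strand): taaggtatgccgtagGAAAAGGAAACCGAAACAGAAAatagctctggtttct
Ifit1 (chr19:34640770-34640828, plus strand): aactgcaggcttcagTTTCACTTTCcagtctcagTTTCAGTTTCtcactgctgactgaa
Ifit3 (chr19:34583358-34583431, plus strand): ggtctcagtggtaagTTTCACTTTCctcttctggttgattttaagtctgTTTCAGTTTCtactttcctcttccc
Bst2 (chr8:71537572-71537617, minus strand): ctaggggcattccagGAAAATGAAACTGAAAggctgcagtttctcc
Gbp2 (chr3:142620589-142620628, plus strand): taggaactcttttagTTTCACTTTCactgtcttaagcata
Gbp3 (chr3:142559984-142560029, plus strand): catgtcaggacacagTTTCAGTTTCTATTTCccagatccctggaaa
Oas3 (chr5:120777710-120777749, minus strand): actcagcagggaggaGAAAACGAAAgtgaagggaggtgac
Stat2 (chr10:128270261-128270300, plus strand): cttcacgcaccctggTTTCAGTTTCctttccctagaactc
Irf1, a target of interferon gamma, had no ISRE core in its windows but a GAS core, here in capitals.
Irf1 (chr11:53769909-53769947, plus strand): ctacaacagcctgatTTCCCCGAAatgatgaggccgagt

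Several of the genes also lie side by side. In GENCODE M21 on GRCm38, Ifit2, Ifit3 and Ifit1 span 99.3 kb of chromosome 19, Oas2, Oas3 and Oas1a span 177 kb of chromosome 5, and Gbp3 and Gbp2 span 78.0 kb of chromosome 3. Chromosome 16 holds Parp14, Dtx3l and Parp9 within 140 kb and Mx1 and Mx2 within 114 kb. Dtx3l and Parp9 overlap on opposite strands at their starts, so reads from that stretch cannot be assigned without strand information, which the labels do not give. The same holds for Irf7, which overlaps Phrf1, and Rtp4, which overlaps Masp1. The row of Irf9 is an assembled locus that also holds Rnf31, the catalytic subunit of the linear ubiquitin ligase, and its values belong to both genes. In the table's own annotation 21 of the 34 genes, 61.8%, carried the term defense response to virus, against 0.548% of all rows. Ifit, Oas, Mx, Gbp and Ifitm proteins belong to families of close relatives, and reads of similar stretches can be shared between them.

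In hearts given isoproterenol the RNA of these genes was at a low level. Levels were in FPKM, read coverage per kilobase of transcript scaled to sequencing depth, so genes can be set against each other. The median of the 34 mean levels was 1.87 FPKM. Of the 24 genes tested below, 8 had a mean above 4.06 FPKM, the median of all tested rows. Means were above 10 FPKM in 3 genes, from 1 to 10 in 22 and under 1 in 9. The highest was Ifitm3, a membrane protein that blocks the entry of viruses, at a mean of 73.7 FPKM, followed by Bst2 and Ifi27 at 11.8 and 11.1 FPKM. The lowest were Oas3 and Mx1, at 0.0692 and 0.106 FPKM. An FPKM of 1 stood for 8297 aligned bases per kilobase in WT2368, the lowest, and 13098 in SRAKO2372, the highest, as far as the steps between the weakest values show it.

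A gene was tested if it reached 1 FPKM in at least 3 of the 6 hearts, which 24 of the 34 genes did, 22 of them in all 6 hearts. None of the 24 got there through hearts of 1 genotype alone (0 of 24). Tests used limma on log2(FPKM + 1) over all 10201 rows that met the same minimum, with Benjamini-Hochberg adjustment and a threshold of 0.05. Differences are SRAKO minus WT on that scale, which understates the change of weak genes.

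Sra1 itself was at 1.96, 1.78 and 2.05 FPKM in SRAKO2365, SRAKO2371 and SRAKO2372, against 4.402, 4.23 and 6.31 FPKM in WT2368, WT2378 and WT2379. The genotypes did not overlap, and the difference of -1.01 (SE 0.14) had a limma adjusted p of 0.258. Ribosomal RNA differed between hearts: the rows of a fixed list of ribosomal transcripts summed to 6913 FPKM in SRAKO2371 and 14614 FPKM in WT2368, against 2093 to 2980 FPKM in the other hearts. Of the SRAKO hearts SRAKO2371 was most often the lowest for the interferon-stimulated genes, for 19 of the 24 tested genes against 40.6% of all tested rows. Of the WT hearts WT2368 was most often the highest, for 12 of the 24 against 17.5% of all tested rows. Both hearts rich in ribosomal RNA thus lay on opposite sides for many of these genes, and a link was not tested.

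None of the interferon-stimulated genes passed the test between genotypes. With limma, 0 of 24 were called, against 0.0196% of all tested rows, and the smallest adjusted p was 0.999. At an unadjusted p under 0.05 there were also 0 of 24, against 3.46% of all rows. The differences were small: 21 of the 24 lay within 0.2 of zero on the log2 scale. The 95% intervals of all 24 lay within a 2-fold change of FPKM + 1 either way. Those of 21 lay within a 1.5-fold change of FPKM + 1. The change of FPKM itself is larger for weak genes, so the intervals do not limit it to these folds. By sign, 20 of 24 were lower in SRAKO hearts and 4 were higher, where 46.5% of all tested rows were lower. The median difference was -0.06, against 0.01 over all tested rows. With all 6 hearts kept but weighted by their quality (array weights in limma), 13 were lower and 11 higher, with a median of -0.01, and 57.5% of all tested rows were lower. With every SRAKO heart below every WT heart there was 1 gene, Ddx58, against 3.76% of all rows. With every SRAKO heart above every WT heart there were 0 genes, against 4.28% of all rows.

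**Figure D1:**
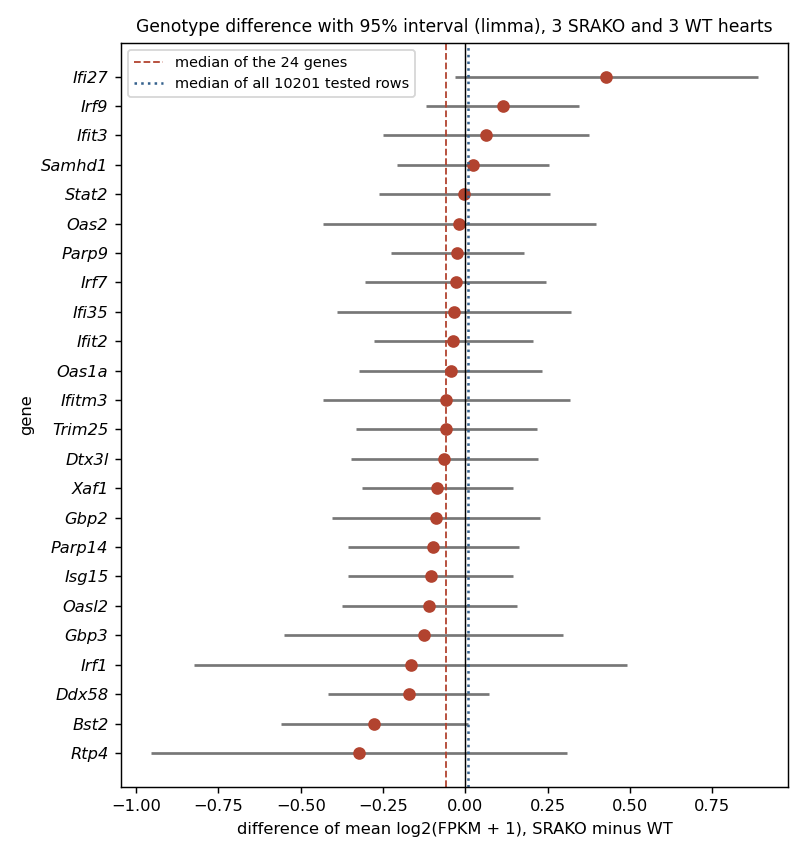
Difference of mean log2(FPKM + 1), SRAKO minus WT, for the 24 tested genes, with the 95% interval from limma as a bar (3 hearts per genotype). All 24 intervals include 0, and the median of the genes (dashed, -0.06) lies close to the median of all tested rows (dotted, 0.01).

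Among the sensors of nucleic acid, only Ddx58 was strong enough to test. Ddx58 encodes RIG-I, which binds viral RNA in the cytoplasm. It had 1.49, 1.13 and 1.49 FPKM in SRAKO2365, SRAKO2371 and SRAKO2372, against 1.91, 1.51 and 1.60 FPKM in WT2368, WT2378 and WT2379. The highest SRAKO hearts came within a few hundredths of an FPKM of the lowest WT heart. Its difference of -0.17 (SE 0.10) had a limma adjusted p of 0.999. Ifih1 encodes MDA5, a sensor of long double-stranded RNA, and had 0.577, 0.385 and 0.687 FPKM in SRAKO hearts, against 0.764, 0.447 and 0.621 FPKM in WT hearts, in the same order of hearts. Those ranges overlapped, with the lowest value in SRAKO2371 and the highest in WT2368. Dhx58, the regulator LGP2, averaged 0.561 ± 0.0926 FPKM in SRAKO and 0.543 ± 0.0604 FPKM in WT, and Zbp1, a sensor of Z-form nucleic acid, 0.483 ± 0.0560 FPKM in SRAKO and 0.462 ± 0.144 FPKM in WT (SD, n = 3 each).

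The 4 transcription factors that carry the signal overlapped between genotypes. Stat2, a part of ISGF3, had 2.29, 1.67 and 2.03 FPKM in SRAKO2365, SRAKO2371 and SRAKO2372, against 2.26, 1.96 and 1.77 FPKM in WT2368, WT2378 and WT2379. The means were 1.997 ± 0.313 FPKM in SRAKO and 1.999 ± 0.249 FPKM in WT (SD, n = 3 each), and the interval of the log2 difference ran from -0.26 to 0.26. Irf7, which amplifies the type I response, had 2.32, 1.99 and 2.20 FPKM in SRAKO hearts, against 2.04, 2.79 and 1.92 FPKM in WT hearts, in the same order of hearts. Its WT values enclosed all of the SRAKO values. The joint row of Rnf31 and Irf9, the DNA-binding part of ISGF3, had 3.79, 3.27 and 3.48 FPKM in SRAKO hearts, against 2.89, 3.59 and 3.04 FPKM in WT hearts, a difference of 0.11 (SE 0.10). Irf1, induced by interferon gamma, varied most among these factors. It had 4.79, 2.0001 and 2.77 FPKM in SRAKO hearts, against 5.43, 2.90 and 2.68 FPKM in WT hearts. A single heart of each genotype, SRAKO2365 and WT2368, stood above the rest for Irf1, and the spread within a genotype exceeded the difference of -0.17 (SE 0.28).

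The effectors that bind foreign RNA differed more between hearts than between genotypes. Ifit1, which holds back the translation of RNA with a foreign cap, had 0.982, 0.830 and 1.16 FPKM in SRAKO2365, SRAKO2371 and SRAKO2372, against 1.71, 0.992 and 0.938 FPKM in WT2368, WT2378 and WT2379. Apart from WT2368, which was highest, the genotypes overlapped. Its partner Ifit3 had 6.25, 4.403 and 4.56 FPKM in SRAKO hearts, against 4.26, 5.13 and 4.92 FPKM in WT hearts, and here WT2368 was the lowest heart. Ifit2 averaged 1.65 ± 0.226 FPKM in SRAKO and 1.72 ± 0.218 FPKM in WT (SD, n = 3 each). Oas2, an enzyme whose product activates RNase L, had 4.81, 2.88 and 4.50 FPKM in SRAKO hearts, against 4.99, 3.80 and 3.48 FPKM in WT hearts. SRAKO2371 was lowest and the other SRAKO hearts lay inside the WT range. Oasl2, an OAS-like protein, had 1.91, 1.28 and 1.896 FPKM in SRAKO hearts, against 1.84, 1.8999 and 1.93 FPKM in WT hearts. All hearts but SRAKO2371 were nearly equal for Oasl2, and SRAKO2371 was low. Eif2ak2, the kinase PKR that shuts down translation, was at 0.905, 0.775 and 0.914 FPKM in SRAKO hearts and at 1.39, 0.633 and 0.868 FPKM in WT hearts, again with WT2368 highest. Oas1a averaged 1.16 ± 0.189 FPKM in SRAKO and 1.23 ± 0.270 FPKM in WT, and Oas3 0.0645 ± 0.0113 FPKM in SRAKO and 0.0739 ± 0.0129 FPKM in WT.

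ISG15 is a ubiquitin-like protein that is attached to other proteins during the response, and USP18 takes it off and also blocks the interferon receptor. Isg15 had 2.33, 1.63 and 1.84 FPKM in SRAKO2365, SRAKO2371 and SRAKO2372, against 2.08, 2.26 and 2.08 FPKM in WT2368, WT2378 and WT2379. Its WT hearts were close together, and its SRAKO hearts lay both above and below them. The difference was -0.11 with an interval from -0.36 to 0.15. Usp18 had 1.09, 0.609 and 0.872 FPKM in SRAKO hearts, against 0.918, 0.709 and 0.684 FPKM in WT hearts, and it was lowest in SRAKO2371. Parp14, an ADP-ribosyltransferase, had 1.47, 1.09 and 1.28 FPKM in SRAKO hearts, against 1.75, 1.29 and 1.28 FPKM in WT hearts, a difference of -0.10 (SE 0.11). Trim25, the ubiquitin ligase that acts with RIG-I, averaged 4.10 ± 0.545 FPKM in SRAKO and 4.30 ± 0.491 FPKM in WT (SD, n = 3 each). The ubiquitin ligase Dtx3l and its partner Parp9 averaged 1.45 ± 0.188 and 1.97 ± 0.186 FPKM in SRAKO and 1.57 ± 0.342 and 2.02 ± 0.0663 FPKM in WT.

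Of the proteins that stop viruses at entry, replication or release, Bst2 had the smallest p of all 24 genes. Bst2 encodes tetherin, which holds budding virus at the cell surface. It had 11.6, 9.81 and 10.2 FPKM in SRAKO2365, SRAKO2371 and SRAKO2372, against 11.1, 14.2 and 13.7 FPKM in WT2368, WT2378 and WT2379. Only WT2368 lay within the SRAKO range. The means were 10.6 ± 0.948 FPKM in SRAKO and 13.03 ± 1.67 FPKM in WT (SD, n = 3 each), 81.0% of WT, and the difference of -0.28 (SE 0.12) had an unadjusted p of 0.0548 and an adjusted p of 0.999 in limma. Ifitm3 had 72.6, 71.9 and 70.4 FPKM in SRAKO hearts, against 58.3, 78.6 and 90.3 FPKM in WT hearts. All SRAKO values fell within the WT range, and the WT hearts were much the more spread. Rtp4, an interferon-induced protein with a role in receptor transport, had 1.37, 0.729 and 1.15 FPKM in SRAKO hearts, against 3.09, 0.924 and 1.18 FPKM in WT hearts. WT2368 held 2.93 times the mean of the other WT hearts for Rtp4, and the difference of -0.32 had an SE of 0.27. Mx1, a GTPase against influenza virus that is defective in many inbred mouse strains, had 0.121, 0.0861 and 0.111 FPKM in SRAKO hearts, against 0.119, 0.1004 and 0.0990 FPKM in WT hearts. Mx2, annotated as a polymorphic pseudogene in GENCODE M21, averaged 0.293 ± 0.0706 FPKM in SRAKO and 0.248 ± 0.0737 FPKM in WT. Samhd1, which depletes the nucleotides that viruses copy with, averaged 3.15 ± 0.361 FPKM in SRAKO and 3.08 ± 0.198 FPKM in WT.

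The guanylate-binding proteins attack membranes around intracellular pathogens and respond strongly to interferon gamma. Gbp2 had 6.04, 4.89 and 4.12 FPKM in SRAKO2365, SRAKO2371 and SRAKO2372, against 5.41, 5.92 and 4.78 FPKM in WT2368, WT2378 and WT2379. Gbp3 had 2.96, 1.98 and 2.18 FPKM in SRAKO hearts, against 3.50, 2.82 and 1.84 FPKM in WT hearts. Both overlapped between genotypes, with differences of -0.09 (SE 0.14) for Gbp2 and -0.13 (SE 0.18) for Gbp3.

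Among the remaining interferon-induced genes, Ifi27 went against the rest. Ifi27 encodes a small hydrophobic protein, and it had 9.57, 16.5 and 12.9 FPKM in SRAKO2365, SRAKO2371 and SRAKO2372, against 10.3, 10.05 and 7.43 FPKM in WT2368, WT2378 and WT2379. It was highest in SRAKO2371, the heart that was lowest for 13 of the 24 tested genes, against 18.0% of all tested rows. SRAKO2365 lay within the WT range. The difference of 0.43 (SE 0.20) had an unadjusted p of 0.0643 and an adjusted p of 0.999 in limma. Markers of fat cells, 8 of 8 with a row, also summed highest in SRAKO2371 (237 FPKM) and next in SRAKO2372 (112 FPKM). The sums were 26.6 FPKM in SRAKO2365 and 31.2 to 61.8 FPKM in WT hearts, with no marker at 0 in every heart. The remaining hearts came in another order, with the sum lowest in SRAKO2365 and Ifi27 lowest in WT2379. The part of these markers in the result was not tested. Ifi35 had 6.57, 4.21 and 5.95 FPKM in SRAKO hearts, against 5.01, 6.24 and 5.76 FPKM in WT hearts. Xaf1, an antagonist of the apoptosis inhibitor XIAP, had 2.14, 1.66 and 1.80 FPKM in SRAKO hearts, against 2.20, 2.05 and 1.86 FPKM in WT hearts. Ifi44 averaged 0.325 ± 0.0153 FPKM in SRAKO and 0.375 ± 0.163 FPKM in WT, where WT2368 was at 0.559 FPKM.

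**Figure D2:**
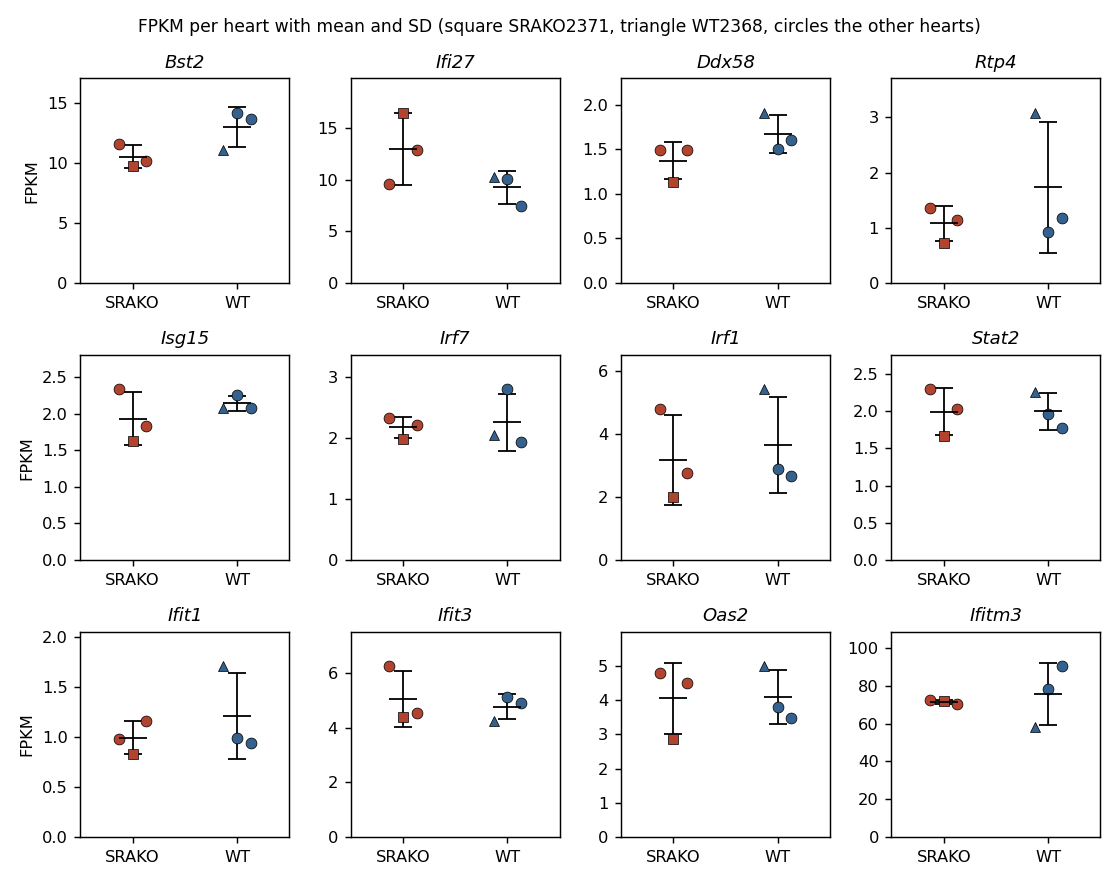
FPKM of 12 of the genes in each heart, SRAKO left and WT right, with the mean and SD of 3 hearts as a dash and bars; each panel has its own axis from 0. SRAKO2371 (square) is often the lowest SRAKO heart, WT2368 (triangle) is the highest WT heart for Ddx58, Rtp4, Irf1, Stat2, Ifit1, Oas2 and Ifi27, and Ifi27 alone has SRAKO2371 on top.

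The 10 genes under the minimum were Ifih1, Dhx58, Zbp1, Ifit1, Oas3, Eif2ak2, Usp18, Mx1, Mx2 and Ifi44. With no minimum, all 34 genes were tested among 25901 rows, 0 of 34 were called by limma and the smallest adjusted p was 0.932.

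Hearts of the same genotype also lay apart for many of the genes, a pattern picked out after the values were seen. Of the 3 SRAKO hearts, SRAKO2371 was the lowest for 19 of the 24 tested genes, against 40.6% of all tested rows, and for 27 of all 34. It was the lowest of all 6 hearts for 13 of the 24, against 18.0% of all rows. Of the 3 WT hearts, WT2368 was the highest for 12 of the 24, against 17.5% of all rows, and for 20 of all 34. It was the highest of all 6 hearts for 9 of the 24, against 10.5% of all rows. For 4 of the 24 WT2368 was instead the lowest of all 6, against 44.9% of all rows. The median gene lay 0.16 below its own 6-heart mean in SRAKO2371 and 0.06 above it in WT2368, on the log2 scale. Over all tested rows the same heart medians were -0.01 in SRAKO2371 and -0.10 in WT2368, so WT2368 was low for most of the table and not for these genes. The hearts of a genotype did not share a side: the median was 0.08 in SRAKO2365 and 0.00 in SRAKO2372, against 0.06 in WT2378 and -0.08 in WT2379. No test was made of this pattern.

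**Figure D3:**
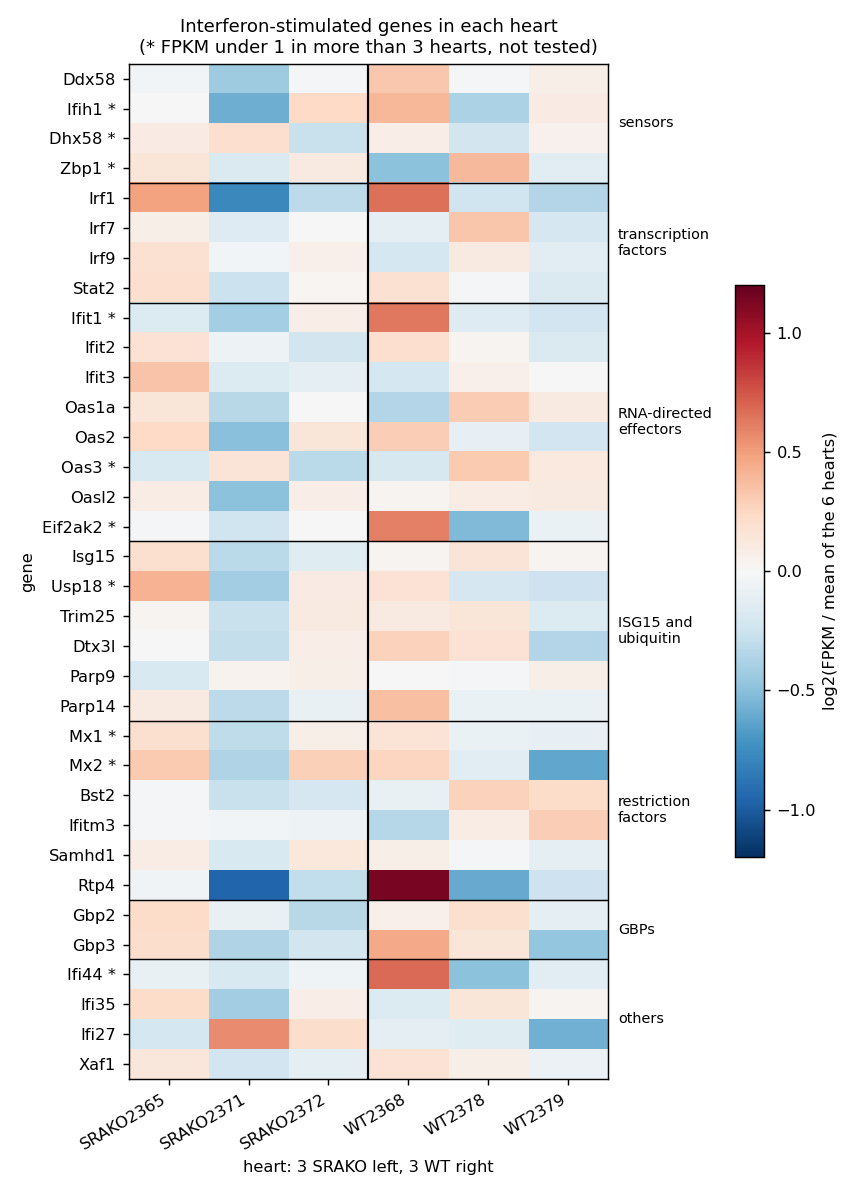
Each of the 34 genes (rows, grouped by role) in each heart (columns, SRAKO left of the line, WT right), coloured by log2 of its FPKM over its mean in 6 hearts. The SRAKO2371 column is mostly blue (lowest of the SRAKO hearts for 27 of 34 genes) and the WT2368 column holds many of the strongest reds (highest of the WT hearts for 20 of 34).

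**Figure D4:**
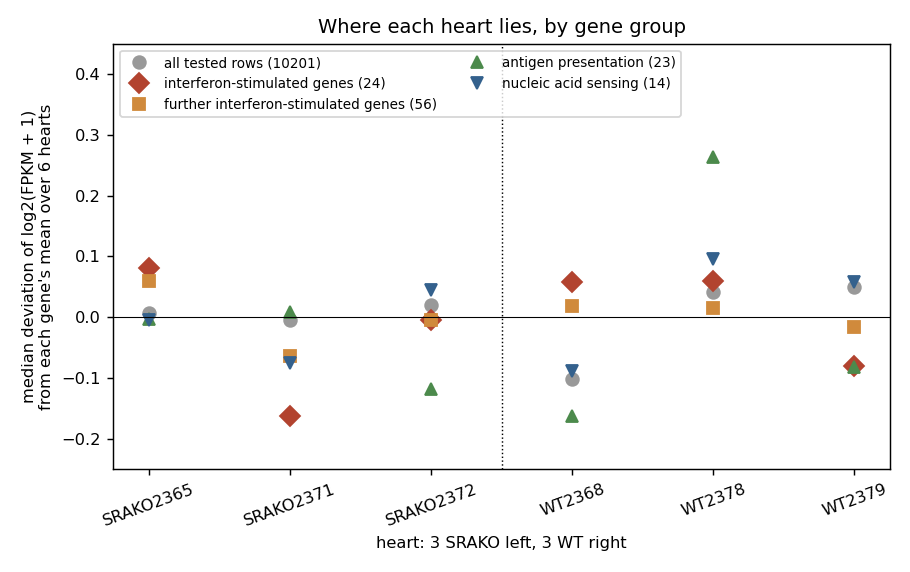
Median deviation of log2(FPKM + 1) from the gene's own mean over 6 hearts, by heart, for the 24 interferon-stimulated genes, for 3 other lists and for all tested rows. The 24 genes lie lowest in SRAKO2371 (-0.16) and highest in SRAKO2365 (0.08), so the SRAKO hearts hold both ends of their range.

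Fewer of the 24 genes were lower in SRAKO hearts when SRAKO2371, WT2368 or both were left out. Both hearts were picked from these same values, SRAKO2371 as often the lowest and WT2368 as often the highest. Leaving them out was therefore bound to raise the difference for many genes, and no conclusion is drawn from it. Without SRAKO2371, 12 of the 24 genes were lower and 12 higher, with a median difference of 0.00. Without WT2368, 14 were lower, with a median of -0.02 where all tested rows had -0.04. Without both SRAKO2371 and WT2368, 9 were lower and 15 higher, the median was 0.05, and all tested rows had a median of -0.03 with 59.2% lower. In that fit 0 of 24 were called. Without SRAKO2365 the median was -0.12, without SRAKO2372 -0.08, without WT2378 -0.03 and without WT2379 -0.10, and in each of these fits 0 of 24 were called.

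**Figure D5:**
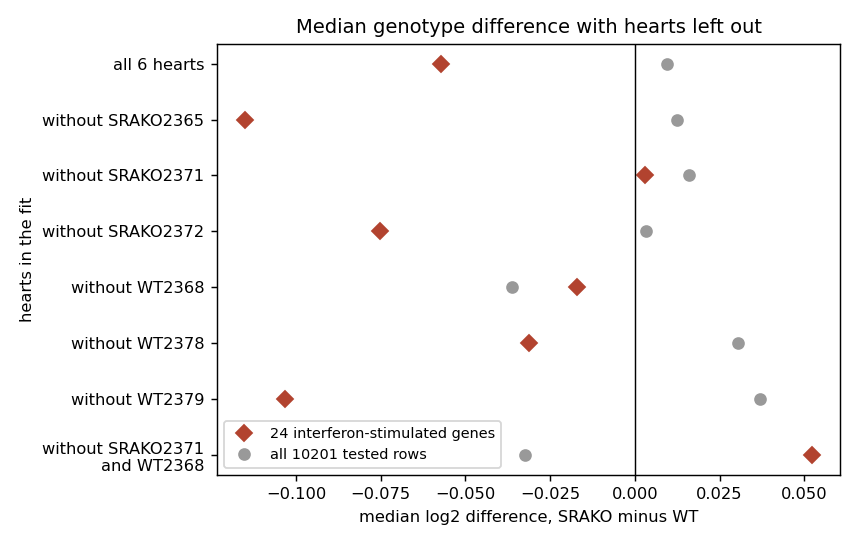
Median log2 difference, SRAKO minus WT, of the 24 interferon-stimulated genes (diamonds) and of all 10201 tested rows (circles) with all hearts and with hearts left out. The genes' median is -0.06 with all 6 hearts. With single hearts left out it runs from -0.12 without SRAKO2365 to 0.00 without SRAKO2371. Without both SRAKO2371 and WT2368 it is 0.05, but these hearts were picked from these same values, so no conclusion is drawn.

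In whole-heart RNA, fewer cells of a type and less RNA per cell cannot be told apart. Markers of several cell types were therefore set beside the genes, whether or not those cells express them. Macrophage and monocyte markers (14 of 14 with a row) summed to 241 to 266 FPKM in SRAKO hearts and 199.97 to 239 FPKM in WT hearts, with WT2368 the lowest. Endothelial markers (12 of 12) summed to 213 to 232 FPKM in SRAKO hearts and 212 to 233 FPKM in WT hearts. Fibroblast markers (9 of 9) summed to 531 to 557 FPKM in SRAKO hearts and 395 to 561 FPKM in WT hearts. For smooth muscle and pericyte markers (10 of 10) the sums were 369 to 376 FPKM and 304 to 384 FPKM. For cardiomyocyte markers (10 of 10) they were 12087 to 12143 FPKM and 11046 to 13594 FPKM. Atrial markers (6 of 6) summed to 2980 to 3511 FPKM in SRAKO hearts and 2485 to 8442 FPKM in WT hearts, with WT2379 the highest. Of the 6 tested atrial markers 6 were lower in SRAKO, against 46.5% of all tested rows, and 0 were called by limma. WT2368 was the lowest heart for the endothelial, fibroblast, smooth muscle, cardiomyocyte and atrial sums, as it was for 44.9% of all tested rows. Gsn, in the fibroblast list, was at 192 FPKM in WT2368 against 309 to 320 FPKM in the other hearts. Dendritic cell markers (9 of 9) summed to 2.39 to 3.08 FPKM in SRAKO hearts and 2.86 to 3.46 FPKM in WT hearts. The sum was lowest in SRAKO2371 and highest in WT2368, but 7 of the 9 markers stayed under 1 FPKM in every heart. Only Clec9a and Zbtb46 were highest in WT2368, while Flt3, Itgax, Cd209a and Xcr1 were highest in WT2378. Siglech, which defines plasmacytoid dendritic cells, was at most 0.0156 FPKM in any heart. B and plasma cell markers (8 of 8) summed to 16.9 to 26.8 FPKM in SRAKO hearts and 12.7 to 70.0 FPKM in WT hearts, with WT2368 the highest. T and NK cell markers (12 of 12) were all under 1 FPKM. Neutrophil markers (11 of 12) summed to 5.10 to 74.1 FPKM in SRAKO hearts and 2.41 to 15.2 FPKM in WT hearts. Red blood cell markers (6 of 6) summed to 2425, 1070.3 and 1088 FPKM in SRAKO2365, SRAKO2371 and SRAKO2372 and to 2096, 1397 and 1801 FPKM in WT2368, WT2378 and WT2379, so SRAKO2371 was the lowest heart, SRAKO2365 the highest and WT2368 the highest of the WT hearts. None of these lists had a marker at 0 in every heart. Their part in the pattern across hearts was not tested.

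The rest of the pathway was followed in further fixed lists, and 0 genes of any of them were called by limma with Benjamini-Hochberg adjustment. Of 21 interferon genes, rows of Ifna16, Ifnab and Ifnz were analysed, and none exceeded 0.0911 FPKM in any heart. The other 18 were not analysed here. Receptors, kinases and transcription factors had 7 of 11 tested rows lower in SRAKO and 4 higher, with a median of -0.05 and 0 at an unadjusted p under 0.05. Irf3, the factor that switches on interferon beta, averaged 5.08 ± 0.196 FPKM in SRAKO and 4.51 ± 0.341 FPKM in WT. The kinases Jak1 and Jak2 averaged 11.7 ± 0.763 and 2.71 ± 0.135 FPKM in SRAKO and 12.8 ± 1.69 and 2.96 ± 0.452 FPKM in WT (SD, n = 3 each).

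Nucleic acid sensing beyond the RIG-I family had 9 of 14 tested rows lower and 5 higher, with a median of -0.04 and 0 at an unadjusted p under 0.05. Sting1, the adaptor for cytoplasmic DNA that the table lists as Tmem173, had 2.62, 2.22 and 2.66 FPKM in SRAKO2365, SRAKO2371 and SRAKO2372, against 2.85, 2.63 and 3.80 FPKM in WT2368, WT2378 and WT2379. Adar, which edits double-stranded RNA and so keeps MDA5 quiet, averaged 2.02 ± 0.141 FPKM in SRAKO and 2.502 ± 0.487 FPKM in WT, a difference of -0.21 (SE 0.12). Traf3, a ligase downstream of these sensors, ran from 0.268 to 1.84 FPKM in SRAKO and from 0.934 to 2.61 FPKM in WT. Negative regulators had 8 of 12 tested rows lower and 4 higher, with a median of -0.03 and 0 at an unadjusted p under 0.05. Rnf125, a ubiquitin ligase that marks RIG-I for breakdown, had 1.22, 0.210 and 1.25 FPKM in SRAKO hearts, against 2.08, 1.23 and 1.56 FPKM in WT hearts, in the same order of hearts. The corepressor Trim24 and the mitochondrial protein Nlrx1 had differences of -0.13 (SE 0.10) and 0.16 (SE 0.16).

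A wider list of interferon-stimulated genes split almost evenly. Of its 56 tested rows 29 were lower and 27 higher in SRAKO hearts, with a median of -0.01. At an unadjusted p under 0.05 there were 2, both higher and both with a limma adjusted p of 0.999, a share close to the 3.46% of all tested rows. Daxx, a histone chaperone, had 3.64, 3.77 and 3.89 FPKM in SRAKO2365, SRAKO2371 and SRAKO2372, against 2.90, 3.06 and 3.13 FPKM in WT2368, WT2378 and WT2379, a difference of 0.24 (SE 0.08). Its genotypes did not overlap, which held upward for 4.28% of all rows. Ifit1bl1, a relative of Ifit1, had 2.08, 1.499 and 2.02 FPKM in SRAKO hearts, against 0.944, 1.51 and 1.33 FPKM in WT hearts, a difference of 0.34 (SE 0.13). Nampt, an enzyme of NAD synthesis, averaged 20.3 ± 2.83 FPKM in SRAKO and 16.5 ± 1.59 FPKM in WT. In SRAKO2371 the median of this wider list lay at -0.06, against -0.16 for the 24 genes.

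Antigen presentation, much of it driven by interferon gamma, had 15 of 23 tested rows lower and 8 higher, with a median of -0.09 and 0 at an unadjusted p under 0.05. The class II chain H2-Ab1 had 15.5, 15.7 and 11.4 FPKM in SRAKO2365, SRAKO2371 and SRAKO2372, against 13.8, 30.9 and 19.99 FPKM in WT2368, WT2378 and WT2379. H2-Eb1 had 15.2, 14.04 and 12.5 FPKM in SRAKO hearts, against 11.5, 25.8 and 20.8 FPKM in WT hearts. For both, WT2378 and WT2379 were above all SRAKO hearts and WT2368 was not. The class I gene H2-Q7 averaged 3.78 ± 0.891 FPKM in SRAKO and 5.31 ± 1.66 FPKM in WT. The order of the hearts differed from that of the interferon-stimulated genes: the median of the antigen presentation list was highest in WT2378 (0.26) and lowest in WT2368 (-0.16).

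Genes with and without the ISRE core in their window were set side by side, with no test of the difference. Of the 9 tested genes with a core 8 were lower in SRAKO, with a median difference of -0.09, and of the 10 tested genes with a window and no core 8 were lower, with a median of -0.05. Of all 13 genes with a core, SRAKO2371 was the lowest of the 6 hearts for 6, where it was for 17 of all 34 genes. WT2368 was the highest for 5 of the 13, where it was for 13 of all 34, and the lowest for 3 of the 13. Ifit1 and Ifit3, which carry a pair of cores each in the stretches shown above, had their WT extremes in the same heart on opposite sides, with WT2368 highest for Ifit1 and lowest for Ifit3.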

How the data were processed

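The authors deposited FPKM values per gene and heart in a single table. Their tools, per the submitters' processing notes, were HISAT2 2.0.4, StringTie 1.3.4d, cutadapt 1.9 and edgeR. The notes name hg38, but the identifiers are of mouse genes: 99.6% of the mouse transcript identifiers, and 157 of 157 in the rows of the 34 genes, are in GENCODE M21 (GRCm38), from which positions were taken. The build used for alignment is therefore not settled. Read numbers per gene are unknown. The weakest FPKM values times transcript length fell on a common step in 5 to 15 rows per heart, read as 1 aligned base, which gave the relative depth.

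Groups came from the sample titles. A symbol was matched to the names in a row. Rows with at least 1 FPKM in at least 3 hearts were fitted on log2(FPKM + 1) by genotype with limma 3.58.1 in R 4.3.3, two-sided, with a variance trend and Benjamini-Hochberg adjustment over all tested rows. The code was tested on simulated data. In the further lists, rows shared between genes were counted once. The 34 genes and all lists were chosen with earlier results of these data known. By rule, values in every heart are given for the 10 tested genes with the smallest p, the 5 with the highest mean and 12 genes chosen by name. Eif2ak2 was added after its values were seen. Of each further list, the 3 tested genes with the smallest p are named, and a gene that the rule also names is not reported here. Fits with hearts left out used the same rows.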

Additional observations from a re-analysis of the deposited data

How the results depend on the processing

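No alternative called any interferon-stimulated gene it tested by limma: 0 were called in each of 16, and 0 to 2 were at an unadjusted p under 0.05. Of the 34 genes, 24 were tested in most alternatives, 5 at a minimum of 5 FPKM, 33 at a minimum of 0.1 FPKM and 34 with no minimum. The number of all rows called, 2 as reported, was 1 at a minimum of 5 FPKM, 0 with no minimum, 1 with a pseudocount of 0.1, 0 with a term for the hearts rich in ribosomal RNA and 0 without WT2368 and SRAKO2371. Leaving out each heart in turn gave 0 to 7 rows called, and 1 to 6 of the 24 genes without overlap, where 14.5% to 24.6% of all rows had none. The 6, without SRAKO2365, stood against 17.2% of all rows. Genes without overlap, 1 as reported against 8.05% of all rows, were 0 at the minimum of 5 FPKM (6.88% of rows), 2 with quantile normalization (10.5% of rows) and 6 without WT2368 and SRAKO2371 (39.0% of rows). The median difference of the genes was 0.052 without that pair of hearts. Over the 24 genes, array weights gave 13 lower and 11 higher, and leaving out that pair gave 9 lower and 15 higher, against 20 and 4 as reported. Among the 18 tested genes named by rule, the sign turned with array weights for Gbp3 (0.0496), Irf1 (0.092), Oas2 (0.13) and Stat2 (0.076). Without WT2368 and SRAKO2371 it turned for Gbp3 (0.11), Ifi35 (0.052), Irf1 (0.30), Oas2 (0.29), Parp14 (0.052), Rtp4 (0.14), Stat2 (0.14) and Xaf1 (0.0054). With single hearts left out, differences ran from -0.21 to 0.0204 for Gbp2, -0.31 to 0.022 for Gbp3, -0.14 to 0.13 for Ifi35, -0.072 to 0.14 for Ifit3, -0.23 to 0.0799 for Ifitm3, -0.43 to 0.088 for Irf1, -0.10 to 0.086 for Irf7, -0.13 to 0.16 for Oas2, -0.17 to 0.0068 for Oasl2, -0.53 to 0.0096 for Rtp4 and -0.074 to 0.078 for Stat2. The cause of these changes was not tested beyond which hearts were left out. Bst2, Ddx58, Ifi27, Irf9 and Isg15 kept their sign in every alternative that tested them. No paired analysis was possible because the hearts of the 2 genotypes share no replicate number. With 3 hearts a genotype, the standard errors of the 24 genes ran from 0.087 to 0.28 on the log2 scale, and 9 of the 34 genes averaged under 1 FPKM.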
